A study of Mus musculus with 30 samples.

Results

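This comparison sets Nlrx1 deficient bone marrow-derived dendritic cells (BMDCs) against wild-type (WT) BMDCs, both collected 3 h after challenge with a fungus. It rests on 6 of the series' 30 RNA sequencing libraries, 3 Nlrx1 deficient (KO) and 3 WT, and it was read across all genes of the deposited count table. The members are the libraries whose labels give both the 3 h time point and one of these genotypes. Marrow from the tibia and femur of KO and WT mice had been cultured for 6 days with the cytokine GM-CSF, under which marrow precursors develop into dendritic cells. Both genotypes then received viable conidia (asexual spores) of Aspergillus fumigatus strain AF29, a mould that is inhaled as spores and can infect the lung. The other libraries, 3 per genotype at 0, 6, 9 and 12 h, entered the same model and were used where a genotype difference at 3 h was read again at another time. The labels do not give the deleted part of Nlrx1, the mouse strain, age or sex, or whether replicates are different mice or cultures; the p-values therefore reflect library-to-library spread alone, which may be technical.

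Nlrx1 is a member of the NOD-like receptor family that carries a mitochondrial targeting sequence. It has been described as a brake on the antiviral adaptor Mavs and on Traf6 and NF-kappaB signalling, and as a regulator of mitochondrial oxygen radicals. Dendritic cells take up conidia, recognise beta-glucan of the swelling spore through the lectin receptor dectin-1 (Clec7a), and answer with cytokines, chemokines and oxygen radicals. Cultures of marrow with GM-CSF hold macrophages and granulocytes beside dendritic cells. In such bulk samples, fewer cells of a type and less RNA per cell cannot be told apart.

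Levels are given as CPM (each count scaled to a common library total), and differences as log2 of KO over WT. A positive difference means higher in KO. Where a standard error (SE) follows a log2 difference, it is that difference's absolute value divided by the square root of edgeR's F statistic. A gene is called where edgeR's quasi-likelihood test gave a Benjamini-Hochberg adjusted p under 0.05 over all 12393 genes tested. Adjusted p-values below are from that test unless another is named. Means of groups carry the SD over 3 libraries.

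Nlrx1 itself (ENSMUSG00000032109, chr9:44252717-44268599, minus strand, GRCm38) had 12, 4 and 3 counts in the KO libraries at 3 h, against 22, 16 and 13 counts in the WT libraries. This was 2.51 ± 2.06 CPM in KO and 7.99 ± 1.36 CPM in WT (SD, n = 3 each). The groups did not overlap, but the log2 difference of -1.68 ± 0.65 did not pass the test (adjusted p = 0.128). At the other times the log2 difference was -2.36 at 0 h, -1.83 at 6 h, -2.33 at 9 h and -1.15 at 12 h. With so few counts the transcript is a weak check of the labels, and counts remained in every KO library at 3 h.

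The 3 h libraries held 2390992 to 2803142 counts in KO and 2020967 to 2567135 counts in WT. Their composition differed by genotype. Small RNA genes (snRNA, snoRNA, scaRNA, miRNA and other short transcripts, without rRNA genes) took 3.62 ± 0.07% of the counts in KO and 6.58 ± 0.19% in WT. Genes of the mitochondrial genome took 11.4 ± 0.44% in KO and 7.88 ± 0.17% in WT, and 25477 to 28082 genes had a count in KO libraries, against 20447 to 22186 in WT libraries. A similar gap stood at 0, 6 and 9 h. At 12 h the WT libraries held 3.82 to 4.01% small RNA, nearer to the 3.2 to 3.53% of the KO libraries at that time. These shares move with genotype in the 3 h comparison, and their part in the gene differences below was not tested beyond a fit with the small RNA share as a covariate, in which 1 gene (Gpnmb, a macrophage marker, lower in KO) in place of 857 was called. The fitted differences moved unequally in that fit: Aldh1a2 (1.33), H2-M2 (1.3), Slc7a11 (0.42), Il1b (0.79), Fabp5 (-0.6) and Plau (-0.56), described below, had log2 differences about as large as without the covariate, while Olr1 (0.33), Ccl22 (0.08), mt-Atp8 (0.51) and mt-Cytb (0.27) had smaller ones. Since that share separates the genotypes completely at 3 h, share and genotype cannot be told apart there.

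**Figure D1:**
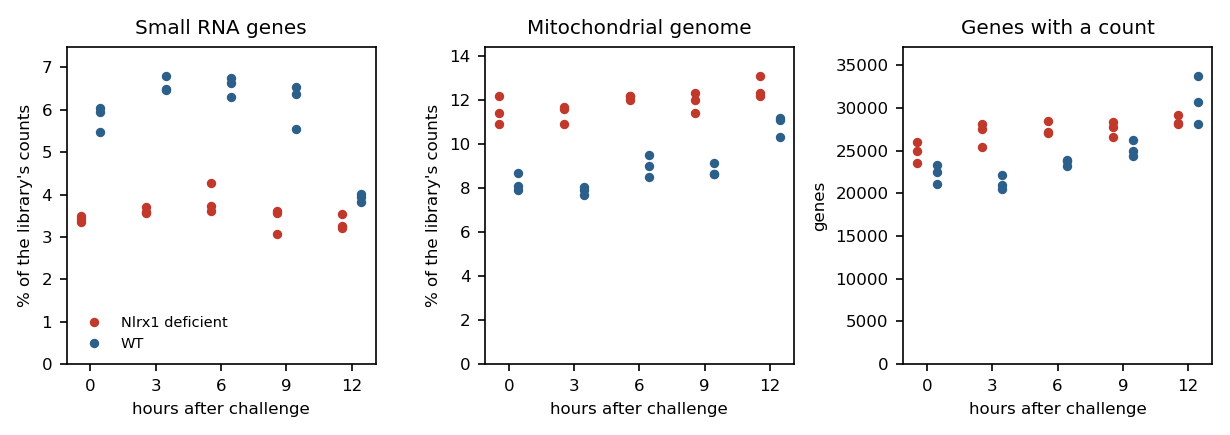
Share of counts from small RNA genes (left), share from the mitochondrial genome (middle) and number of genes with a count (right) in each of the 30 libraries by hours after challenge. Red points are Nlrx1 deficient libraries and blue points WT libraries, drawn side by side. At 3 h the KO libraries lie at 3.57 to 3.7% small RNA and the WT libraries at 6.46 to 6.8%.

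Of the 12393 genes tested, 857 (6.92%) were called. In KO, 374 of them were higher (3.02%) and 483 were lower (3.9%). At an unadjusted p under 0.05 the number was 2474 (20%). Differences were mostly small, with a median of 0.55 for the higher and -0.53 for the lower genes. A difference of at least 2-fold was fitted for 91 of the higher and 133 of the lower genes. Among nuclear protein-coding genes 333 were higher and 295 lower of 10491 tested. Without any 1 of the 6 libraries all 857 kept their direction, and 367 of them (125 higher and 242 lower) stayed past the threshold in all 6 such fits.

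**Figure D2:**
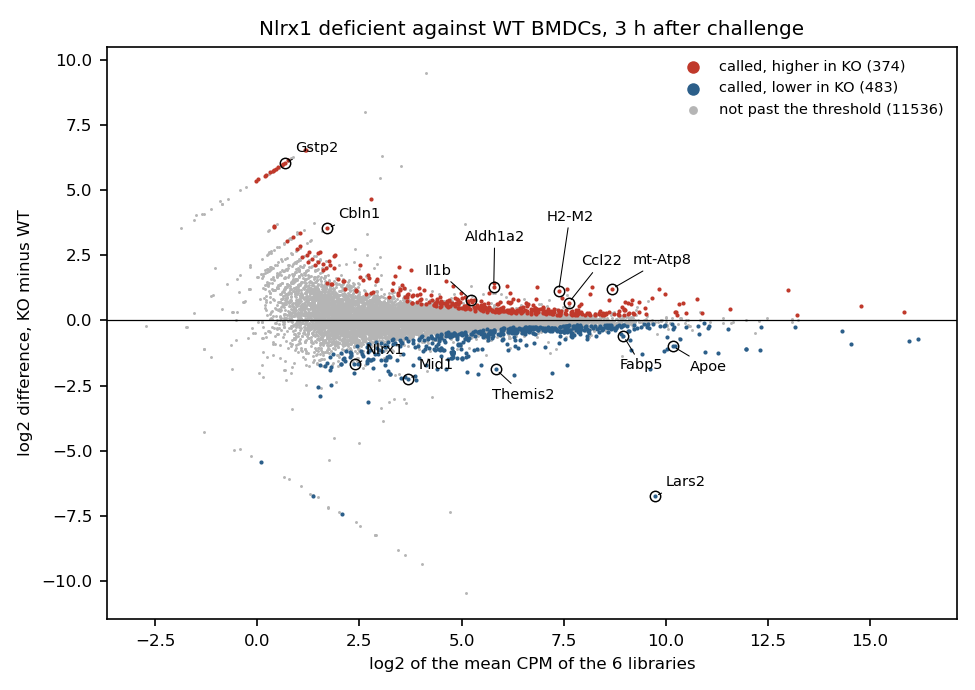
Log2 difference between KO and WT at 3 h (vertical) against the log2 of the mean CPM of the 6 libraries (horizontal), 1 point per gene tested. Red points were called higher in KO (374), blue points lower (483) and grey points neither, and 3 genes without a count in these libraries are not drawn. Most called genes lie within 1 log2 unit of 0, and Lars2 stands apart at -6.75.

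The genes that led the comparison included secreted, surface and metabolic proteins of myeloid cells. Aldh1a2, which makes retinoic acid from retinal and marks regulatory dendritic cells, had 77.4, 83.3 and 74.2 CPM in KO libraries, against 28.7, 33 and 34.6 CPM in WT libraries. Every KO library lay well above every WT library, and the log2 difference was 1.29 ± 0.12 (adjusted p = 5.04e-08). H2-M2, a non-classical MHC class I gene, had 211, 229 and 240 CPM in KO and 99.8, 106 and 109 CPM in WT, a log2 difference of 1.11 ± 0.1 (adjusted p = 9.62e-09). Olr1, a C-type lectin-like receptor for oxidised lipoprotein, had 205, 248 and 227 CPM in KO and 124, 122 and 131 CPM in WT. Slc7a11, the cystine importer that feeds glutathione synthesis, had 827, 836 and 823 CPM in KO and 629, 602 and 579 CPM in WT, a log2 difference of 0.46 ± 0.03 (adjusted p = 9.48e-10). None of these groups overlapped, as for 26.2% of all genes tested, and lack of overlap was one of the criteria by which genes were named.

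Among the genes that were lower, Themis2, a signalling adaptor of B cells and myeloid cells, had 26.1, 22.2 and 25.4 CPM in KO libraries, against 90.5, 89.2 and 91 CPM in WT libraries. The log2 difference was -1.88 ± 0.12 (adjusted p = 6.34e-11). Fabp5, a fatty acid-binding protein, had 397, 385 and 407 CPM in KO and 601, 597 and 605 CPM in WT. Plau, the urokinase plasminogen activator, had 388, 404 and 387 CPM in KO and 562, 557 and 572 CPM in WT. Both were narrow within each genotype, with log2 differences of -0.6 ± 0.05 for Fabp5 and -0.52 ± 0.05 for Plau.

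The 250 bases upstream of the RefSeq start (GRCm38.p6) are shown for 6 of these genes, 4 that were higher in KO and 2 that were lower, chosen after their values were seen from the leading genes and from the cytokine and complement lists below. Each has a single start in the table. Letters run 5′ to 3′ on the gene's strand and end at the base before the start. Capitals mark matches to any of 6 motifs searched on both strands: kappaB (GGG, NN, TT, N, CC), AP-1 TGANTCA, the interferon-stimulated response element (TTTC, NN, TTTC), the antioxidant response element TGANNNNGC, a PU box GAGGAA and a TATA box TATAAA. The AP-1 letters can overlap those of the antioxidant response element.
Aldh1a2: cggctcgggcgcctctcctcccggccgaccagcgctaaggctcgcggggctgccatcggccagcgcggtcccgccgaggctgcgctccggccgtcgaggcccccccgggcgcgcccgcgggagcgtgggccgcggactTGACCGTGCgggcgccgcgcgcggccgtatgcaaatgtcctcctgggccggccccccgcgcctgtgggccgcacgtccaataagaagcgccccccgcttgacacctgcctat
Il1b: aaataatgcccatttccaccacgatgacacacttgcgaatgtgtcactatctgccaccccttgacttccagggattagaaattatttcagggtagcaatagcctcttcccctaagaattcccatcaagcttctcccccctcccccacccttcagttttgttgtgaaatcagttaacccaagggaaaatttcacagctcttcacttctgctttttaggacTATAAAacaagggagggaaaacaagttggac
Olr1: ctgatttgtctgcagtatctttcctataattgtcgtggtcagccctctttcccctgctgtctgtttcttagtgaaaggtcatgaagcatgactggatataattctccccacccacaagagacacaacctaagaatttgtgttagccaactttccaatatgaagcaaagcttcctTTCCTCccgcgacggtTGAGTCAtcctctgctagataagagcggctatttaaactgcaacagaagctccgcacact
Slc7a11: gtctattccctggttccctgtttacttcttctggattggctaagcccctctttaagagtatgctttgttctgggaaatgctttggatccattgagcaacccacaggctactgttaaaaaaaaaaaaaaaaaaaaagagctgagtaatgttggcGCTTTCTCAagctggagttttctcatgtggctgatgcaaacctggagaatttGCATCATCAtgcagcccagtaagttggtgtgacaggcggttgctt
Themis2: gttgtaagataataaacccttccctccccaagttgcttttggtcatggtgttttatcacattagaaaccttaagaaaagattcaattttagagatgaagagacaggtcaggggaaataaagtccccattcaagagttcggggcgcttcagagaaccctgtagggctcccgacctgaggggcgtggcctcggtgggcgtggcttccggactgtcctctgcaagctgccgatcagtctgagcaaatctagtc
C1qb: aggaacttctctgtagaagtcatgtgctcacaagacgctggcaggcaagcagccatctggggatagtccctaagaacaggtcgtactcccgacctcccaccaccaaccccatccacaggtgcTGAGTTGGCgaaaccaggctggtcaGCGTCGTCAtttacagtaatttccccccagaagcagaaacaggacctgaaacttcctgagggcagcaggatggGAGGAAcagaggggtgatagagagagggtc
The windows are chr9:71215539-71215788 (plus strand) for Aldh1a2, chr2:129371140-129371389 (minus) for Il1b, chr6:129507166-129507415 (minus) for Olr1, chr3:50443614-50443863 (minus) for Slc7a11, chr4:132796365-132796614 (minus) for Themis2 and chr4:136886201-136886450 (minus) for C1qb.

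The capitals in Aldh1a2 are 1 match to the antioxidant response element, and those in Il1b are a TATA box 31 to 26 bases before the start. Olr1 holds an AP-1 match 60 to 54 bases before the start and a PU box on the other strand, Slc7a11 holds 2 matches to the antioxidant response element and C1qb holds 2 of that element with a PU box. No motif matched in Themis2. Aldh1a2 stood apart in base composition, with 77.6% G and C and 40 CpG, against 43.2 to 55.2% and 2 to 8 CpG in the other windows. These matches describe the letters and are not sites shown to be bound. A promoter was found for 250 of the coding genes called higher, 221 of those called lower and 8296 of all those tested. The PU box letters stood in 22% of promoters of genes higher in KO, 32.1% of those lower in KO and 23% of all tested. The AP-1 letters stood in 6.4%, 5.43% and 4.11% in the same order, and the antioxidant response element in 35.2%, 32.6% and 37.2%. KappaB letters stood in 4.8%, 5.88% and 4.54%, interferon response letters in 3.2%, 3.62% and 2.78% and the TATA box in 9.2%, 8.6% and 6%.

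**Figure D3:**
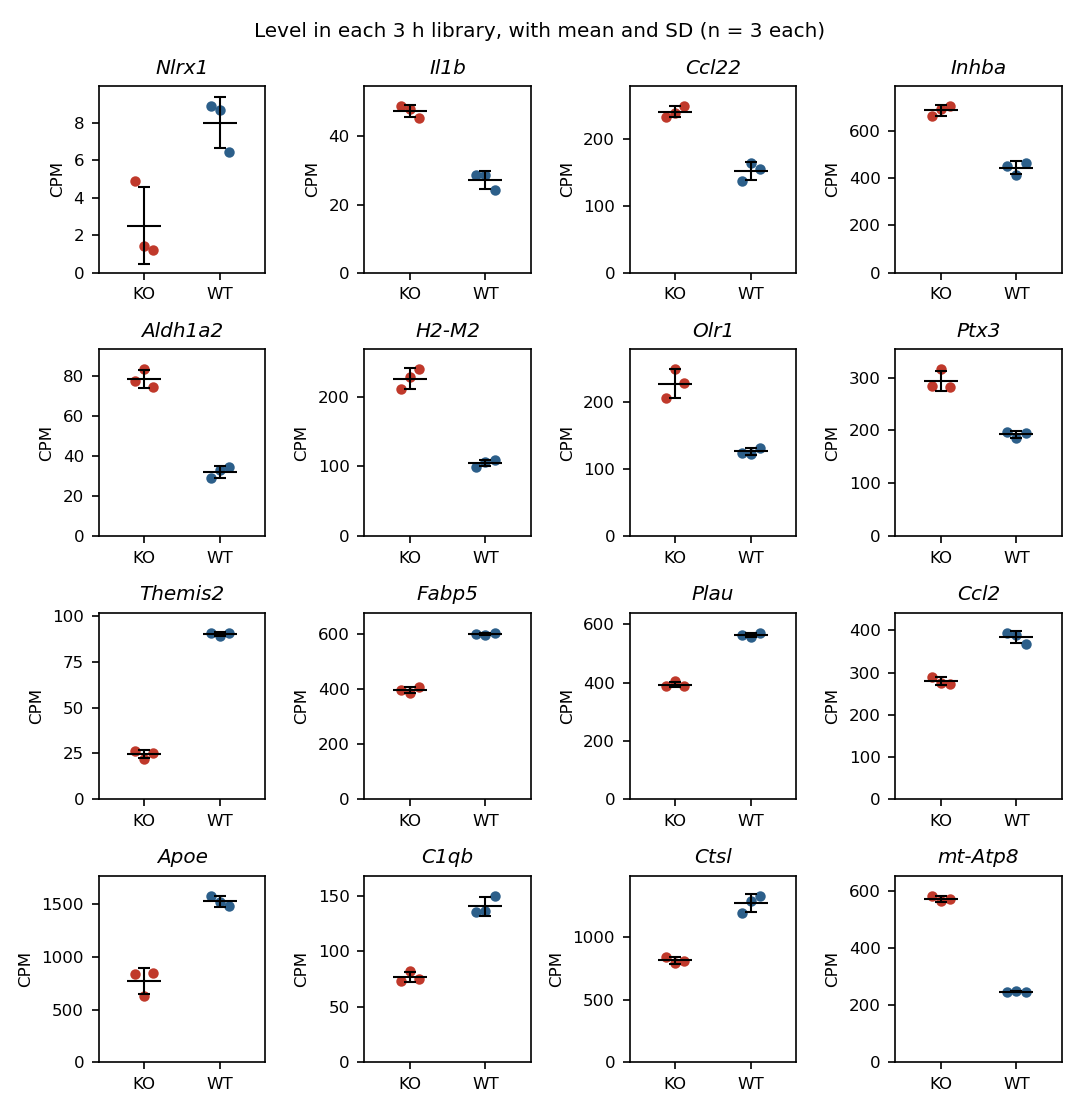
CPM of 16 genes in each 3 h library, KO (red) left and WT (blue) right in every panel, with the mean and SD (black, n = 3 each) and axes from 0. No panel shows an overlap of the genotypes, and only Nlrx1, with the fewest counts, missed the test.

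Of 28 tested inflammatory cytokines and chemokines, 6 were higher in KO, 4 were lower and 18 did not pass the test (35.7% called, against 6.92% of all genes). Their median log2 difference was -0.09, against 0.02 over all genes tested, and it lay between -0.07 and 0.03 without 1 library (0.03 without KO replicate 1). The interleukin 1 genes were both higher. Il1b, whose product is cut to its active form by the inflammasome, had 48.9, 48 and 45.5 CPM in KO libraries, against 28.7, 28.6 and 24.2 CPM in WT libraries (log2 difference 0.8 ± 0.11, adjusted p = 1.64e-05). Il1a had 125, 128 and 130 CPM in KO and 90.5, 89.2 and 76.6 CPM in WT. Cxcl3, a neutrophil attractant, averaged 572 ± 24.9 CPM in KO and 396 ± 28.1 CPM in WT. Inhba, which encodes a subunit of activin A, averaged 686 ± 22.6 CPM in KO and 444 ± 26.8 CPM in WT. All 4 kept their calls whichever library was left out.

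Chemokine genes moved in both directions. The CCR4 ligands Ccl22 and Ccl17, which draw helper and regulatory T cells, were higher in KO. Ccl22 had 234, 240 and 250 CPM in KO libraries, against 137, 164 and 155 CPM in WT libraries (log2 difference 0.67 ± 0.09), and Ccl17 averaged 429 ± 6.94 CPM in KO and 346 ± 34.7 CPM in WT. The monocyte attractant Ccl2 was lower, with 290, 275 and 274 CPM in KO and 395, 390 and 368 CPM in WT (log2 difference -0.46 ± 0.09, adjusted p = 0.000973). Tgfb1, an immunosuppressive cytokine, was lower by 0.3 on the log2 scale. Ccl7 (-0.78) and Ccl3 (-0.22) passed with all libraries, but Ccl7 lost its call without any 1 library other than KO replicate 3 (adjusted p up to 0.187) and Ccl3 without KO replicate 2 or 3 or WT replicate 2 or 3 (adjusted p up to 0.0834). Tnf had 82.8 ± 6.67 CPM in KO and 75.2 ± 5.67 CPM in WT and did not pass (adjusted p = 0.55).

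Of 24 genes of dendritic cell maturation and migration, 3 were higher in KO (Ccl17, Ccl22 and Aldh1a2) and 1 was lower. This was 16.7% called, against 6.92% of all genes. Fscn1, which bundles actin in mature dendritic cells, had 9.38, 23.6 and 32 CPM in KO and 40.4, 35.1 and 45.5 CPM in WT. Its call was lost without KO replicate 1 (the library at 9.38 CPM) or WT replicate 3, with adjusted p-values of 0.0745 to 0.0795. Ccr7, the lymph node homing receptor, had 22.8 ± 4.57 CPM in KO and 35.2 ± 12.9 CPM in WT, with overlapping libraries (adjusted p = 0.0903). None of 11 MHC class II genes was called by edgeR (against 6.92% of all genes), 3 had an unadjusted p under 0.05, and DESeq2 called none. Irf4, a transcription factor of dendritic cells, was higher, with 130, 130 and 123 CPM in KO and 90.5, 91.9 and 95.4 CPM in WT. Irf4 was the 1 called gene of 12 tested markers of conventional dendritic cells (8.33%). The list's summed level was 1700 to 1770 CPM in KO and 1580 to 1710 CPM in WT. Most of that sum was 1 gene, Itgax, at 1340 CPM in KO and 1260 CPM in WT.

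Of 13 retinoic acid genes tested 2 were higher and 1 was lower (23.1%, against 6.92% of all genes). Their median was -0.15, and -0.23 to -0.04 without 1 library (-0.23 without WT replicate 2, -0.04 without WT replicate 1). Cyp26b1, which breaks retinoic acid down, averaged 13.8 ± 1.54 CPM in KO and 5.99 ± 1.92 CPM in WT beside the rise of Aldh1a2. Its call was lost without KO replicate 2 or WT replicate 2 (adjusted p up to 0.114). Fabp5, which carries retinoic acid and fatty acids, was the member that was lower. Of 24 genes of fatty acid handling 2 were higher and 2 lower (16.7%, against 6.92% of all genes). The lower ones were Fabp5 and the lipid droplet coat gene Plin2, at 311 ± 16.4 CPM in KO and 384 ± 5.98 CPM in WT.

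Fungal recognition genes moved in both directions, 3 of 24 higher and 5 lower (33.3%, against 6.92% of all genes), with a median of 0. Ptx3, a soluble pentraxin that binds Aspergillus conidia, had 285, 316 and 282 CPM in KO libraries, against 197, 185 and 196 CPM in WT libraries (log2 difference 0.61 ± 0.09, adjusted p = 2.52e-05). Cd36, a scavenger receptor, averaged 1590 ± 15.8 CPM in KO and 1310 ± 48.2 CPM in WT. The beta-glucan receptor gene Clec7a was at 1450 ± 95.3 CPM in KO and 1430 ± 26.5 CPM in WT, a difference of 0.02 ± 0.05 that did not pass. Clec4e, the receptor Mincle, had 99.5, 128 and 124 CPM in KO and 48.5, 49.7 and 103 CPM in WT. The WT libraries overlapped the KO libraries there, and the difference did not pass (adjusted p = 0.301).

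Beside the oxidase subunit gene Cyba, the lower members of that list were adaptor, integrin and lectin genes. Tyrobp, the DAP12 signalling adaptor, had 179, 183 and 163 CPM in KO and 237, 255 and 240 CPM in WT (log2 difference -0.48 ± 0.07). Lgals3, a galactose-binding lectin, averaged 1980 ± 17 CPM in KO and 2290 ± 80.9 CPM in WT. Vav1, an exchange factor downstream of C-type lectins, and the integrin chain Itgb2 fell by 0.3 and 0.11 on the log2 scale. Vav1 lost its call without KO replicate 1 or 3 or WT replicate 1 or 3 (adjusted p up to 0.0985), and Itgb2 without any library other than KO replicate 2 (up to 0.132).

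The NADPH oxidase, the enzyme that makes superoxide in the phagosome, had its membrane subunits on opposite sides. Cybb (gp91phox) had 2000, 2170 and 2020 CPM in KO libraries, against 1710, 1700 and 1650 CPM in WT libraries, a log2 difference of 0.29 ± 0.04 (adjusted p = 4.87e-06). Cyba (p22phox) had 417, 432 and 461 CPM in KO and 487, 532 and 545 CPM in WT, a log2 difference of -0.26 ± 0.05 (adjusted p = 0.00174). In the whole list of 13 oxidase and antioxidant genes 4 were higher and 2 lower (46.2%, against 6.92% of all genes). Sod2, the mitochondrial superoxide dismutase, averaged 373 ± 17.8 CPM in KO and 293 ± 7.08 CPM in WT, and Acod1, which makes itaconate, averaged 148 ± 5.14 CPM in KO and 107 ± 3.15 CPM in WT. The other members called were Cat, the catalase gene (0.22), and Gpx4, which reduces lipid peroxides (-0.28). Cat lost its call without any library other than KO replicate 3 (adjusted p up to 0.16), and Gpx4 without KO replicate 1 or WT replicate 2 (up to 0.119).

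Targets and regulators of NRF2, the transcription factor of the oxidative stress response, were higher in 4 of 25 cases and lower in none, with a median of 0.12. This was 16% called, against 6.92% of all genes. The factor's own gene Nfe2l2 had 257, 245 and 234 CPM in KO and 216, 204 and 197 CPM in WT (log2 difference 0.25 ± 0.06). Txnrd1, a thioredoxin reductase, averaged 790 ± 21 CPM in KO and 669 ± 32.5 CPM in WT, and Slc7a11 is described above. Hmox1, the heme oxygenase gene, was at 683 ± 36 CPM in KO and 748 ± 14.7 CPM in WT and did not pass (adjusted p = 0.213). The metallothionein genes, which bind zinc and copper, were higher: Mt2 had 44, 38.1 and 46.7 CPM in KO libraries, against 20.6, 22.2 and 19.3 CPM in WT libraries (log2 difference 1.05 ± 0.14), and Mt1 averaged 188 ± 10 CPM in KO and 148 ± 0.462 CPM in WT. They were the 2 called genes of 17 for iron and metal handling (11.8%, against 6.92% of all genes).

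Genes of the lysosome were lower in 8 of 30 cases and higher in 1 (30%, against 6.92% of all genes), with a median of -0.11. Ctsl, a cysteine protease, had 843, 790 and 811 CPM in KO libraries, against 1190, 1290 and 1330 CPM in WT libraries (log2 difference -0.64 ± 0.08, adjusted p = 2.62e-06). Ctsb averaged 2610 ± 52.1 CPM in KO and 3250 ± 57.8 CPM in WT, Lgmn 153 ± 5.88 CPM in KO and 203 ± 13.5 CPM in WT, and Ctsa 296 ± 10.4 CPM in KO and 366 ± 17.7 CPM in WT. These are the 4 falls that held with every library left out. The calls of Lamp1, Hexa, Gusb and Atp6v1b2 were each lost without at least 2 of the libraries in turn, every library being among them, with adjusted p-values up to 0.194. Lamp2, a membrane protein needed for fusion with the lysosome, was higher, at 409 ± 10.4 CPM in KO and 336 ± 12.5 CPM in WT.

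Complement genes were lower in 5 of 12 cases and called higher in none (41.7%, against 6.92% of all genes). C1qb had 73, 82.2 and 75.4 CPM in KO libraries, against 135, 136 and 150 CPM in WT libraries (log2 difference -0.87 ± 0.09, adjusted p = 1.16e-07), and C1qc averaged 47.5 ± 3.8 CPM in KO and 79.2 ± 2.97 CPM in WT. Both encode chains of C1q, which macrophages make. Cfb, factor B of the alternative pathway, had 57.1, 64.2 and 63.1 CPM in KO and 27.1, 22.2 and 42 CPM in WT, and its log2 difference of 1.01 ± 0.55 did not pass here (adjusted p = 0.323), but did with the 6 libraries fitted alone (adjusted p = 0.0196). In the authors' deposited table Cfb is listed as higher in KO, with an adjusted p of 0.00577. The anaphylatoxin receptors C5ar1 and C3ar1 and the receptor Cd93 were called too, with log2 differences of -0.54, -0.31 and -0.3. C5ar1 lost its call without KO replicate 1 or 3 or WT replicate 3 (adjusted p 0.05 to 0.0866), C3ar1 without KO replicate 1 or 3 or WT replicate 2 or 3 (up to 0.168) and Cd93 without KO replicate 2 or 3 or WT replicate 1 or 3 (up to 0.18).

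Markers of macrophages moved with genotype. Of 16 tested, 10 were lower in KO and 1 was higher, with a median of -0.4 (68.8% called, against 6.92% of all genes). The summed level of all 18 on the list was 9020 to 9200 CPM in KO libraries, against 11500 to 11600 CPM in WT libraries. The largest members of that sum were Gpnmb and Spp1. Of the 16 tested, 3 had a positive difference. Marco averaged 17.2 ± 5.09 CPM in KO and 7.12 ± 2.42 CPM in WT, and Mrc1 averaged 107 CPM in KO and 94.7 CPM in WT, neither called. Apoe, a lipid carrier, had 836, 628 and 851 CPM in KO and 1580, 1520 and 1480 CPM in WT (log2 difference -0.99 ± 0.09). Adgre1, which encodes the F4/80 antigen, averaged 155 ± 9.39 CPM in KO and 211 ± 16.8 CPM in WT. Csf1r, the receptor of the macrophage growth factor, averaged 617 ± 23.1 CPM in KO and 731 ± 11.3 CPM in WT. Fcgr1 (-0.54), Trem2 (-0.47), Spp1 (-0.31), Gpnmb (-0.26), C1qb and C1qc completed the falls that held with each library left out. Maf fell by 0.5 but lost its call without any library other than WT replicate 3 (adjusted p up to 0.182), and Mertk, at 61.4 ± 3.73 CPM in KO and 48 ± 2.16 CPM in WT, was the member called higher and lost its call without KO replicate 1 or 3 or WT replicate 1 or 3 (up to 0.0917).

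C1qb and C1qc stand in both the complement and the macrophage list, and the part of this marker shift in the complement and lysosomal falls was not tested. Neutrophil markers were lower in 3 of 11 cases (27.3%, against 6.92% of all genes), with a median of -0.22. Of the 11, 3 had a positive difference. S100a8 averaged 94.5 CPM in KO and 89.9 CPM in WT. The list's summed level was 1400 to 1540 CPM in KO and 1670 to 1700 CPM in WT. The largest members of that sum were Mmp8, at 731 CPM in KO and 775 CPM in WT, and Mmp9, at 269 CPM in KO and 261 CPM in WT. Ngp, a granule protein, had 50.1, 53.6 and 53.3 CPM in KO and 104, 104 and 106 CPM in WT, and Ltf, lactoferrin, averaged 28.6 ± 7.85 CPM in KO and 61.7 ± 5.02 CPM in WT. S100a9 lost its call without KO replicate 1 or WT replicate 3 (adjusted p up to 0.0567), and the list member Ctsg was at 0 counts in all 6 libraries. Among 9 monocyte markers 1 was called (11.1%). This was Vcan, a matrix proteoglycan, which was higher, with 136, 152 and 146 CPM in KO and 86.5, 76.8 and 80.6 CPM in WT. The list's summed level of 11600 to 12400 CPM in KO overlapped the 12200 to 12600 CPM in WT. The largest members of that sum were Lyz2, at 8540 CPM in KO and 8830 CPM in WT, and Fn1, at 3100 CPM in KO and 3290 CPM in WT. T and NK cell markers summed to at most 6.93 CPM in KO and 2.42 CPM in WT.

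The protein-coding transcripts of the mitochondrial genome encode core subunits of the respiratory chain. They were higher in KO in 13 of 13 cases, with a median log2 difference of 0.68. mt-Atp8, an ATP synthase subunit, had 584, 564 and 571 CPM in KO libraries, against 245, 249 and 248 CPM in WT libraries (log2 difference 1.21 ± 0.08, adjusted p = 6.34e-11). mt-Cytb averaged 2240 ± 143 CPM in KO and 1250 ± 63.5 CPM in WT, mt-Nd4 1050 ± 55.4 CPM in KO and 582 ± 36.2 CPM in WT, and mt-Nd6, the coding gene on the opposite strand, 491 ± 9.79 CPM in KO and 287 ± 8.76 CPM in WT. The smallest difference was that of mt-Atp6, 0.31 ± 0.06. All 13 held with every library left out. In the fit with the small RNA share, which cannot tell share from genotype at 3 h, none of the 13 was called. In that fit mt-Co1 and mt-Nd6 had differences of -0.04. Of 35 nuclear genes of the respiratory chain 1 was higher and 1 lower (5.71%, near the 6.92% of all genes), with a median of -0.03. Cox6a1 of complex IV averaged 47.1 ± 0.513 CPM in KO and 64.7 ± 4.61 CPM in WT. Cycs, cytochrome c, was at 72.3 ± 7.35 CPM in KO and 54 ± 4.55 CPM in WT and lost its call without KO replicate 2 (adjusted p = 0.0739).

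Cytosolic ribosomal protein genes were lower in 14 of the 33 on the list and higher in none (42.4%, against 6.92% of all genes). Their median was -0.2, and over all 80 such genes tested 22 were lower and 1 higher. Rpl37 had 136, 126 and 142 CPM in KO and 206, 197 and 210 CPM in WT, and Rplp1 averaged 471 ± 15.7 CPM in KO and 631 ± 21.8 CPM in WT. Rplp0 (-0.4) and Rps2 (-0.43) fell alike, and 11 of the 14 falls held with every library left out. Small RNA genes were lower in 112 of 235 cases and higher in 1 (48.1%, against 6.92% of all genes), with a median of -1.08. Lower among them were 42 of 51 snRNA genes and 46 of 129 snoRNA genes. Of 15 rRNA genes, which are not part of that class, 13 were lower. The libraries were made with a kit that selects polyadenylated RNA, and the 2 mitochondrial rRNA genes were called higher. Of 11 mitochondrial tRNA genes tested 1 was higher and 3 were lower (36.4%, against 6.92% of all genes), with a median of -0.67.

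**Figure D4:**
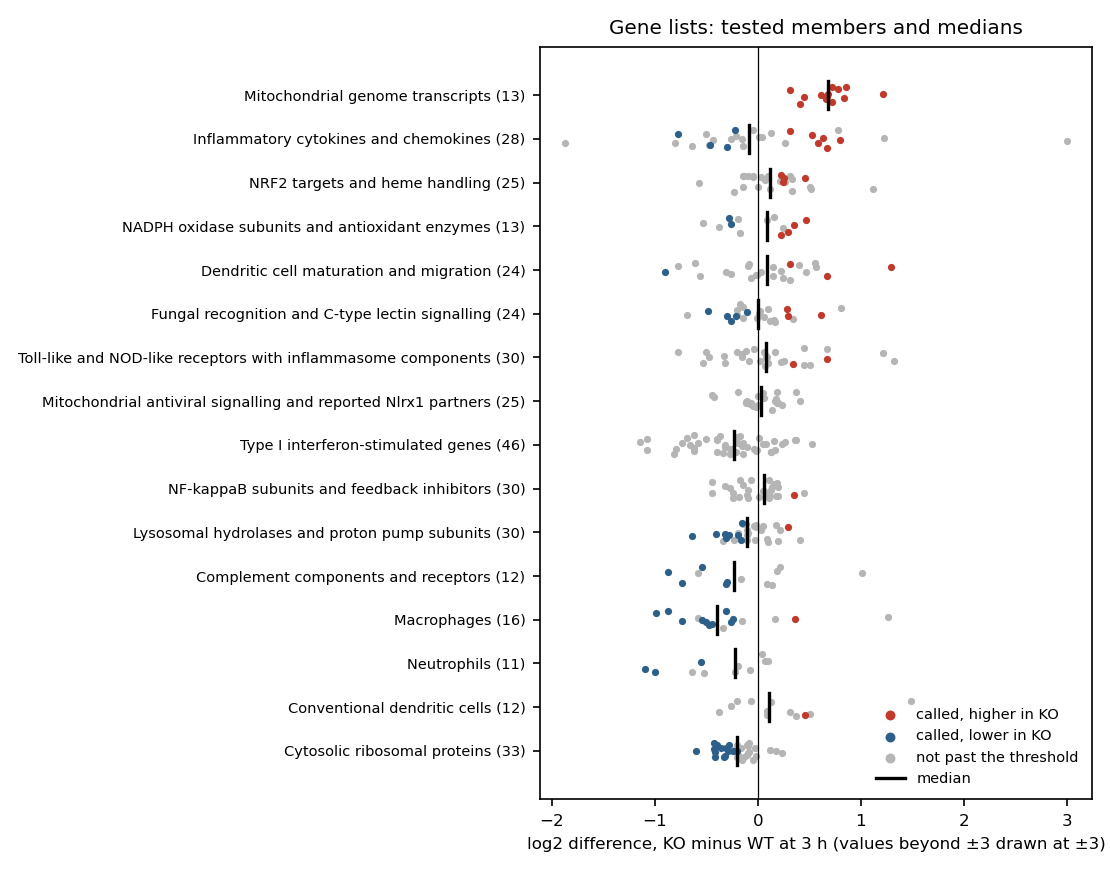
Log2 difference between KO and WT at 3 h for each tested member of 16 gene lists (number tested in brackets). Red points were called higher in KO, blue points lower and grey points neither, with the list's median as a black bar. Protein-coding genes of the mitochondrial genome stand wholly to the right (median 0.68) and macrophage markers mostly to the left (median -0.4). No interferon-stimulated gene is coloured.

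The next lists cover pathways in which Nlrx1 has been described as a brake, and their counts are to be read against the 6.92% of all genes called. None of 25 genes of mitochondrial antiviral signalling and reported Nlrx1 partners was called by edgeR, 2 had an unadjusted p under 0.05 and DESeq2 called none. Mavs averaged 33.2 ± 3 CPM in KO and 29.1 ± 2.96 CPM in WT (adjusted p = 0.484), and Traf6 43 ± 5.25 CPM in KO and 37.5 ± 1.99 CPM in WT (adjusted p = 0.495). Of 46 type I interferon-stimulated genes none was called by edgeR with all libraries, 2 had an unadjusted p under 0.05, and DESeq2 called 1. With the 6 libraries fitted alone, edgeR called 1 of 38 tested as lower. Their median log2 difference was -0.23 at 3 h, 0.61 at 0 h, 0.16 at 6 h, 0.45 at 9 h and 0.57 at 12 h. The median at 3 h was -0.07 without KO replicate 1, -0.08 without WT replicate 3 and -0.39 without WT replicate 1. Isg15, a ubiquitin-like effector, was low in both genotypes, at 2.81 ± 1.38 CPM in KO and 4.38 ± 0.45 CPM in WT (adjusted p = 0.641). Ifitm3, another interferon-stimulated gene, averaged 18.7 ± 3.04 CPM in KO and 40.1 ± 5.45 CPM in WT. Its difference did not pass here (adjusted p = 0.072). The authors' deposited table lists Ifitm3 as lower in KO, with an adjusted p of 0.00577 from its Wald test. Gbp2, a guanylate-binding protein that attacks pathogen vacuoles, was the 1 called gene of 13 in its family, with 94.6, 90.7 and 104 CPM in KO and 47.7, 60.5 and 57.8 CPM in WT (log2 difference 0.81 ± 0.12).

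Of 30 NF-kappaB subunit and feedback genes, 1 was called (3.33%). Rel, the c-Rel subunit, averaged 72 ± 8.43 CPM in KO and 56.4 ± 2.07 CPM in WT, and its call was lost without KO replicate 3 or WT replicate 1 or 2 (adjusted p up to 0.165). Of 30 Toll-like and NOD-like receptor and inflammasome genes, Naip2 and Naip6, sensors of bacterial secretion proteins, were higher by 0.34 and 0.67, and their share of 6.67% lay near that of all genes. They are near copies of each other whose reads the counting may have split. Naip2 lost its call without KO replicate 2 or 3 or WT replicate 2 or 3 (adjusted p up to 0.26), and Naip6 without KO replicate 1 or 2 or WT replicate 2 or 3 (up to 0.193). Nlrp3, the inflammasome sensor for Il1b processing, had 34.6, 38.1 and 35.7 CPM in KO and 68.3, 48.1 and 69.2 CPM in WT. The groups did not overlap, and the difference did not pass here (adjusted p = 0.0991). The authors' deposited table lists Nlrp3 as lower in KO, with an adjusted p of 0.0261 from its Wald test. With the 6 libraries fitted alone, 1 of 29 genes tested in this list was called lower and 0 higher.

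Immediate early genes were higher in 2 of 32 cases and lower in 4 (18.8%, against 6.92% of all genes). Btg1, an antiproliferative factor, averaged 569 ± 16.7 CPM in KO and 439 ± 13.2 CPM in WT, and Jun, an AP-1 subunit, had 150, 171 and 138 CPM in KO and 201, 205 and 195 CPM in WT. These 2 calls held with every library left out. Those of Nr4a3 (0.6), Jund (-0.24), Atf3 (-0.23) and Ier5 (-0.33) were each lost without at least 4 of the libraries in turn, every library being among them, with adjusted p-values up to 0.177. Of 26 genes of the unfolded protein and integrated stress response 2 were higher and 4 lower (23.1%, against 6.92% of all genes). Atf4, the transcription factor of that response, averaged 166 ± 10.9 CPM in KO and 220 ± 19.9 CPM in WT, while Slc7a11, one of its known targets, was higher. The chaperone genes Calr and Pdia4 fell by 0.19 and 0.28 on the log2 scale. Atf5 (-0.53) lost its call without KO replicate 1 or WT replicate 1 (adjusted p up to 0.0854), and Dnajb9 (0.57) without any library other than WT replicate 2 (up to 0.186).

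A few low or isolated genes differed by larger factors. Mid1, an E3 ubiquitin ligase gene of the X chromosome, had 14, 7 and 13 counts in KO libraries, against 49, 47 and 38 counts in WT libraries, a log2 difference of -2.25 ± 0.29 (adjusted p = 5.55e-06). Mid1-ps1, annotated as a pseudogene on the Y chromosome, had 0 counts in each KO library, against 21, 14 and 19 counts in WT libraries (adjusted p = 3.51e-06). Whether the counting split reads between Mid1 and Mid1-ps1 was not tested. Ank3, which encodes ankyrin-G, averaged 10.1 ± 1.69 CPM in KO and 3.25 ± 1.07 CPM in WT, and Serpinb9b, a protease inhibitor gene with close paralogs, averaged 11.5 ± 1.62 CPM in KO and 3.67 ± 1.09 CPM in WT. Nnt, the mitochondrial transhydrogenase that makes NADPH, had 48, 46 and 35 counts in KO and 12, 10 and 19 counts in WT. Its log2 difference was 1.36 ± 0.32 (adjusted p = 0.00696), and the call was lost without WT replicate 1 (adjusted p = 0.058). Cbln1, a secreted C1q-family protein, had 12, 20 and 15 counts in KO and 0, 3 and 0 counts in WT, where its fitted log2 difference of 3.53 became 6.97 without WT replicate 2, the library with its 3 counts.

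Lars2, the mitochondrial leucyl-tRNA synthetase gene on chromosome 9, had 34, 42 and 44 counts in KO libraries, against 3345, 3547 and 3582 counts in WT libraries (log2 difference -6.75 ± 1.47, adjusted p = 0.00601). In the other groups its mean was 13.9 CPM in KO and 15.5 CPM in WT at 0 h, 13.3 CPM in KO and 12.7 CPM in WT at 6 h, and 21 CPM in KO and 14.3 CPM in WT at 12 h. At 9 h it was 284 ± 470 CPM in KO and 236 ± 387 CPM in WT, an SD above the mean in both. The gene thus stood high in all 3 WT libraries of 3 h, and its genotype difference at 3 h minus the mean of those at the other times did not pass (adjusted p = 0.195). Dpm1, a dolichol-phosphate mannosyltransferase subunit, had 53, 56 and 54 counts in KO and 11, 19 and 5 counts in WT at 3 h, with log2 differences of -0.14, 0.52, 0.01 and -0.16 at 0, 6, 9 and 12 h.

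The genotype difference at 3 h was then read in the libraries of the other times, which share no sample with it. Of the 374 genes higher in KO at 3 h, 93.9% were also higher at 0 h, before the fungus was added, 95.5% at 6 h, 93.6% at 9 h and 71.1% at 12 h. Of the 483 lower genes, 96.1% were also lower at 0 h, 95.7% at 6 h, 89.4% at 9 h and 69.8% at 12 h. Over all genes tested the share with a positive difference was 51.4% at 0 h and 50.1% at 12 h. Called at 0 h in the same direction were 152 of the higher genes, where 2.26% of all genes were called higher, and 233 of the lower genes, where 2.76% were called lower (5.02% in either direction). At 6 h 151 of the higher and 274 of the lower genes were called in the same direction, beside 2.42% of all genes called higher and 3.36% called lower (5.78% in all). At 9 h the numbers were 132 and 195, beside 2.15% and 2.91% (5.06% in all). At 12 h they were 66 and 39, beside 1.23% and 0.678% (1.9% in all). At an unadjusted p under 0.05 the shares of all genes were 17.2% at 0 h, 18.4% at 6 h, 17.4% at 9 h and 11.4% at 12 h. Every one of the other 4 times also called 52 of the higher and 29 of the lower genes in the same direction.

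Single genes kept their differences to unequal extents. Aldh1a2 was higher in KO by 1.5 at 0 h, 1.29 at 3 h, 1.38 at 6 h, 1.29 at 9 h and 1.39 at 12 h on the log2 scale. Il1b was higher by 0.99, 0.8, 0.64, 0.68 and 0.59 at these times, and Themis2 was lower, with differences of -1.42, -1.88, -1.71, -1.63 and -1.56. Ctsl had -0.5, -0.64, -0.44, -0.45 and -0.17, and mt-Atp8 had 1.11, 1.21, 1.06, 1.29 and 0.42. Against 0 h, no gene's genotype difference at 3 h passed the test (0% called by edgeR, 674 genes or 5.44% at an unadjusted p under 0.05, and 2 genes called by DESeq2). Against the mean of the other 4 times 3 genes passed (0.0242%), 1 with a positive difference (0.00807%) and 2 with a negative one (0.0161%), and 951 (7.67%) had an unadjusted p under 0.05.

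**Figure D5:**
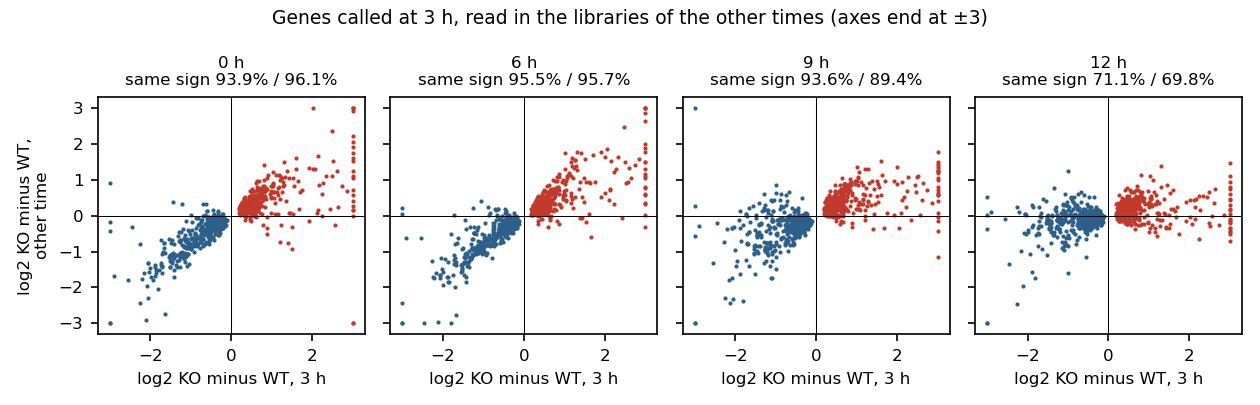
Log2 difference between KO and WT at 0, 6, 9 and 12 h (vertical) against that at 3 h (horizontal) for the 857 genes called at 3 h, red where higher and blue where lower in KO, with values beyond 3 drawn at the edge. Percentages give the share of higher and of lower genes with the same sign at the other time, which is least at 12 h (71.1% and 69.8%).

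The called genes also differed in gene model and in their course during challenge. Among nuclear protein-coding genes, the median length of the longest transcript was 4348 bases for genes higher in KO, 2639 bases for genes lower in KO and 3538 bases for all tested, and the median GC content was 43.7%, 54% and 49.3% in the same order. In WT cells between 0 and 12 h, libraries outside the 3 h comparison, 43% of the genes higher in KO at 3 h rose and 3.48% fell, while 6.63% of the genes lower in KO rose and 44.5% fell. Over all genes tested 9.64% rose and 8.47% fell in WT in that interval. The small RNA share in WT libraries moved in the same interval, as given above, and its part in this overlap was not tested. Around Nlrx1 on chromosome 9, 4 of 63 genes tested within 5 Mb were called (6.35%, against 6.92% of all genes), and 12 of 114 within 10 Mb (10.5%).

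The authors' deposited table for this comparison lists 193 genes, 136 of them lower and 57 higher in KO. The smallest absolute log2 fold change in the authors' deposited table is 0.5, so genes with smaller differences such as Slc7a11 (0.46 here) are not listed, and its length is not comparable with the 857 calls. All 193 were tested here, and 161 were called, each in the same direction as in the authors' deposited table. That table comes from the same libraries, so this compares analyses and not experiments.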

How the data were processed

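The authors deposited whole-number read counts for 54532 Ensembl genes in 30 libraries, with 0 per-sample columns left unused here. Per the labels' protocols, the libraries were stranded and selected for mRNA. Trimmomatic 0.35, HISAT2, StringTie, DESeq2 and the build GRCm38 are named in the submitters' processing notes, and the strand setting of the counting was not given. The authors' deposited 3 h table holds, per the file headers, size-factor-scaled counts (a signal value), log2 fold changes of WT over KO, a Wald statistic (a score) and p-values with an adjusted p-value, and lists only genes with an adjusted p under 0.05 and an absolute log2 fold change of at least 0.5. It was used for its list, directions and smallest fold change, and for its adjusted p-values of Cfb, Ifitm3 and Nlrp3.

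Counts were tested with edgeR 4.0.16 (R 4.3.3), robust quasi-likelihood, in 1 fit of all 30 libraries with a term per group, TMM scaling and Benjamini-Hochberg adjustment. filterByExpr (minimum count 10) kept 12393 genes and 98.66% of the counts, with 20 residual degrees of freedom and a biological coefficient of variation of 13.7%. No prior count was set in the fit, so edgeR's default applied to the log2 differences. CPM were computed from TMM-scaled totals. The script was tested on simulated data. Gene models are from GENCODE M21 (54495 IDs matched, 37 did not) and promoters from RefSeq (GRCm38.p6). Replicates did not show the agreement of 1 library deposited again.

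The members and the 41 lists were chosen with earlier results of these data known. Genes named were Nlrx1 and fixed genes, the largest rises and falls without overlap at 5 CPM or more, the smallest p-values, and list members past the threshold with the largest that missed it. The text describes a part of them. Alternatives were other scaling factors, no count filter, DESeq2 1.42.0, the 6 libraries alone, the replicate number as a block, the small RNA share as a covariate, and each library left out.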

Additional observations from a re-analysis of the deposited data

Results flagged for a closer look

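The genotype difference of 3 genes at 3 h differed from the mean of their differences at the other 4 times in the edgeR fit (adjusted p from the quasi-likelihood test over all genes). Gstp2, a glutathione transferase gene with a near-identical paralog, so that its counts are uncertain, had 7, 11 and 7 counts in KO libraries and 0 counts in each WT library at 3 h. With the WT group set at 3 counts in all, this is at least 6.85-fold higher in KO. At the other times its means were 2.84 to 3.58 CPM in KO and 2.99 to 3.84 CPM in WT, and the fitted difference of differences was 6.14 ± 0.93 on the log2 scale (adjusted p = 0.00987). That fitted value depends on the prior count.

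Gm24270, annotated as a miRNA gene, averaged 1470 ± 64 CPM in KO and 3490 ± 122 CPM in WT at 3 h, and its difference was -0.45 ± 0.08 beyond that of the other times (adjusted p = 0.0177). Gm42418, annotated as a lincRNA gene, averaged 1460 ± 20.2 CPM in KO and 2130 ± 89.6 CPM in WT at 3 h, and its difference was -0.33 ± 0.06 beyond that of the other times (adjusted p = 0.0177). Neither was lower in KO at 3 h alone. Gm24270 averaged 1410 CPM in KO and 2920 CPM in WT at 0 h, 1370 and 2940 CPM at 6 h, and 1440 and 2870 CPM at 9 h. Gm42418 averaged 1510 CPM in KO and 2020 CPM in WT at 0 h, 1400 and 1850 CPM at 6 h, and 1540 and 1550 CPM at 9 h. Both had nearly equal means in the genotypes at 12 h, with 1400 CPM in KO and 1450 CPM in WT for Gm24270 and 1470 CPM in KO and 1490 CPM in WT for Gm42418. The mean of the other times includes these 12 h values.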

How the results depend on the processing

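The 857 calls at 3 h became 859 with relative log expression factors, 914 with TMM factors from protein-coding genes, 579 with DESeq2, 485 (of 10364 genes tested) in the 6 libraries alone and 451 (of 46958) without a count filter, where 32.2% of the calls were higher in KO, against 43.6%. Leaving out a library gave 588 to 695. The test against 0 h went from 0 to 2 calls with DESeq2, and to 0 to 2 without 1 library. That against the other times went from 3 to 18 with DESeq2, which gave no adjusted p for 11293 genes, to 1 without a count filter and to 0 to 7 without 1 library. With the replicate number as a replicate block, 856 genes were called, 822 of them shared, and Hexa, Ccl7, Maf and Itgb2 lost their calls. The numbers share no origin in the labels, and deviations of same-numbered libraries correlated at 0.01, -0.04 and 0.01. Nlrx1 kept its direction and missed the threshold in every alternative. Of 101 named genes called, 101 stayed called with either other scaling, 73 without a count filter and 86 with DESeq2, and none reversed in these.

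With the small RNA share as a covariate, 1 gene was called at 3 h and 0 against the other times. Fitted differences without a call were about as large as in the fit reported, or larger, for Aldh1a2 (1.33), H2-M2 (1.3), Slc7a11 (0.42), Fabp5 (-0.6) and Cxcl3 (0.62). Signs turned, none past the threshold, for mt-Nd6 (-0.04), mt-Co1 (-0.04), Inhba (0), Lgals3 (0.05), Pdia4 (0.01), Irf4 (-0.14), Sod2 (-0.15), Cycs (-0.01), Nfe2l2 (-0.04), Lars2 (4.15), Gpx4 (0.36), Gusb (0.05), Nr4a3 (-0.41), Naip6 (-0.1), Hexa (0.03), Itgb2 (0.13), Hmox1 (0.16), Traf6 (-0.56), Cfb (-0.43) and Tnf (-0.17). The share and genotype cannot be told apart at 3 h. Clec7a, at 0.02 in the fit reported, lay at 0 with protein-coding TMM factors, at -0.02 without a count filter and with the covariate, and between -0.04 and 0.07 without 1 library. At 2020967 to 2803142 counts per library, differences of low genes such as Nlrx1 and Isg15 were not resolved.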
